A study of Mus musculus with 10 samples.

Results

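The genes described are 10 photoreceptor transcription factors, *Crx*, *Nrl*, *Nr2e3*, *Otx2*, *Neurod1*, *Rorb*, *Thrb*, *Rxrg*, *Mef2c* and *Mef2d*. They were taken by gene name from the 54532 genes of the expression table, and all 10 were found and passed the filter on low values. Neural retinas of 2-month-old BALB/c mice, an albino strain whose eyes lack pigment and which is sensitive to light damage, were profiled by RNA-seq. All mice were dark-adapted for 12 hr and then kept for 1 day either under normal light of 200 lux (NL, 5 retinas, numbered 1, 4, 5, 7 and 8) or under high-intensity light of 15000 lux (LD, 5 retinas, numbered 1, 4, 6, 7 and 8). The labels list no other treatment for either group. The values are FPKM, fragments per kilobase of exon after scaling for depth, so that levels can be compared between genes.

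Rods and cones arise from a shared precursor. The homeodomain factors OTX2 and CRX switch on the genes of both photoreceptor types, NRL and its target NR2E3 direct a precursor to the rod fate and hold cone genes silent, and RORB acts upstream of NRL. NEUROD1, TRβ2 (a product of *Thrb*) and RXRγ take part in cone development and opsin choice, and MEF2C and MEF2D are MADS-box factors, of which MEF2D is known to act with CRX on photoreceptor genes. In adult rods, CRX, NRL and NR2E3 remain bound at phototransduction genes, and the level of these genes depends on them.

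*Crx*, *Nrl* and *Nr2e3* form the core of the rod network and had the 3 highest levels of the 10 genes under NL, so the 250 bases before the transcript start of each are shown, taken from RefSeq on GRCm38.p6 and written 5′ to 3′ on the gene's own strand. Capitals mark matches, on either strand, to TAATCC (reverse GGATTA), the core bound by CRX and OTX2, and to CAGATG (reverse CATCTG), an E-box of the kind bound by NEUROD1. The *Crx* window is chr7:15879956-15880205 on the minus strand, the *Nrl* window chr14:55524253-55524502 on the minus strand, and the *Nr2e3* window chr9:59950080-59950329 on the minus strand. The *Nrl* and *Nr2e3* windows lie inside the spans of the counted gene models, which on this strand begin at 55524981 and 59960659. Their RefSeq starts are thus not the outermost starts of those models.
Crx: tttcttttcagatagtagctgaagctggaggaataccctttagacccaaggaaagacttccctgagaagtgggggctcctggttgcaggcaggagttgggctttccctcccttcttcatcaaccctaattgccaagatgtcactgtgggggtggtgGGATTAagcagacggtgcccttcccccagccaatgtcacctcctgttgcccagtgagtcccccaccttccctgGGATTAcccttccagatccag
Nrl: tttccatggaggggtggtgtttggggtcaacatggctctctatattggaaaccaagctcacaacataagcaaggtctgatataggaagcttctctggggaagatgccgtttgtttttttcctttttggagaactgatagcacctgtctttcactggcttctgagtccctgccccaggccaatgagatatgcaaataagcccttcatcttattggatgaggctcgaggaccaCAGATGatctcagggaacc
Nr2e3: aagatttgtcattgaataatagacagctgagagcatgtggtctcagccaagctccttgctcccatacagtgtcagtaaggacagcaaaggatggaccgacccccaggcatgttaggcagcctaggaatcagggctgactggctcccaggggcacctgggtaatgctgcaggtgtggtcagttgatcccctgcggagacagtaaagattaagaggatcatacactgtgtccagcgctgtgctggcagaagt
The *Crx* window held 2 matches to the CRX core, which begin 94 and 21 bases before the start. In *Nrl* the window held 1 E-box match, which begins 19 bases before the start. The *Nr2e3* window held no match to either, nor to TGCTGA (reverse TCAGCA), a core of NRL sites, AGGTCA (reverse TGACCT), a core of nuclear receptor sites, or the MEF2 motif. Over 32851 RefSeq windows of this length, 6.25% held the CRX core, 14.4% the E-box, 16.1% the NRL core, 14.0% the nuclear receptor core and 1.69% the MEF2 motif. All 10 genes had a RefSeq entry, with 18 windows in all, and the CRX core was found in windows of 3 genes, *Crx*, *Otx2* and *Thrb*. No match overlapped another. These are matches of letters in a short window, and binding was not measured.

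Depth, recovered from the FPKM as whole reads, ranged from 21343389 to 26832535 reads in the NL group and from 18965090 to 23378090 reads in the LD group. In pairwise comparisons within a group, LD-4 and LD-6 were closer to each other (chi-square per gene 2.52) than to the other LD retinas, as were LD-1 and LD-7 (3.41) and NL-5 and NL-7 (2.71), while the other pairs were at 10.9 to 38.5. Such a comparison cannot tell whether a close pair came from 1 mouse. Each retina was counted as 1 sample because the labels list it as one and the study calls them biological replicates. The labels do not say how many mice they came from, so the p-values measure the spread between these 10 samples, which may be in part technical. The first pair stood apart in the levels of most of the factors, as described below, and results were therefore also computed without LD-4 and LD-6, a choice made once the values were known. Markers of the expected neural cell types were present in all retinas, and none of the genes of the marker lists was at 0 in all 10 retinas.

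*Nrl*, *Nr2e3*, *Mef2c* and *Crx* were lower after LD by more than 2-fold, *Otx2*, *Rxrg* and *Rorb* were lower by less than 2-fold, and *Neurod1* and *Mef2d* did not pass the test. *Thrb* was lower in all 5 LD retinas with an adjusted p just above 0.01. LD was compared with NL in limma on log2(FPKM + 0.1), with p-values adjusted by the Benjamini-Hochberg method over the 24508 genes tested, and a gene was called changed when the adjusted p was below 0.01 and the groups differed by more than 2-fold. Of the 10 factors, 4 were called, all lower, where 6.51% of the genes tested were called in either direction, 2.37% as lower and 4.13% as higher. With the adjusted p alone, 7 of the 10 passed, all lower, against 17.0% of the genes tested in either direction, 7.74% lower and 9.3% higher. At an adjusted p under 0.05 without a minimum fold, 8 of the 10 passed, against 27.8% of the genes tested. The LD and NL values did not overlap in 8 of the 10, all with LD lower, against 22.4% of the genes tested in either direction and 10.6% with LD lower. The median log2 difference of the 10 was -0.67, beside -0.01 over all genes tested and -0.03 over the 1088 tested genes to which the table gives a transcription factor family.

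**Figure D1:**
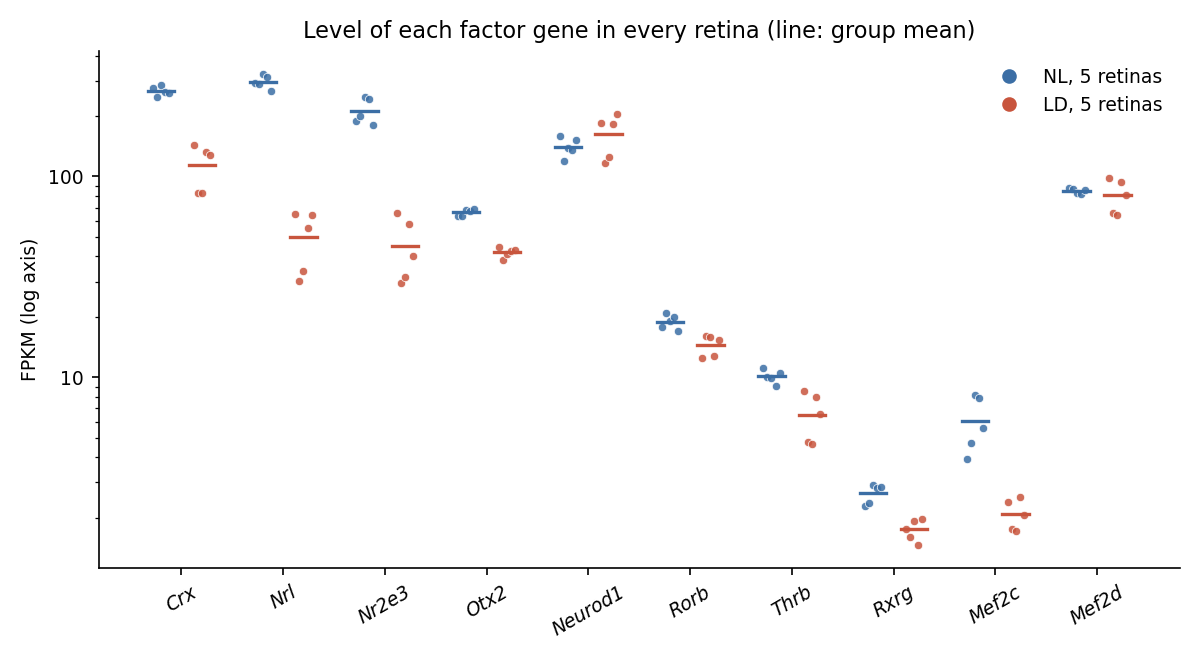
FPKM of each of the 10 factor genes (log axis) in the 5 NL retinas (blue) and the 5 LD retinas (red), with a line at each group mean. The LD points lie below all NL points in 8 genes, while those of *Neurod1* and *Mef2d* overlap.

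The rod fate factor *Nrl* (ENSMUSG00000040632, chr14:55518978-55524981, minus strand, GRCm38), a basic leucine zipper gene, had the highest level of the 10 under NL and the largest decrease. Its FPKM was 291.7 in NL-1, 287.4 in NL-4, 322.6 in NL-5, 310.9 in NL-7 and 266.0 in NL-8. After LD it was 65.2 in LD-1, 30.2 in LD-4, 33.7 in LD-6, 55.1 in LD-7 and 64.4 in LD-8. All 5 LD retinas were far below the NL retinas, and LD-4 and LD-6 were the lowest. The mean went from 295.7 ± 21.9 to 49.7 ± 16.8 FPKM (SD, n = 5 retinas each), 5.95-fold lower, and the log2 difference was -2.64 (standard error 0.21, 95% interval -3.11 to -2.17, adjusted p = 1.00e-05 in limma). The two-sided exact permutation test over retinas gave p = 0.00794, the smallest that 5 against 5 allow, and the same value was found for the other 7 genes without overlap.

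*Nr2e3* (ENSMUSG00000032292, chr9:59942771-59960659, minus strand) encodes the orphan nuclear receptor that acts below NRL and represses cone genes in rods. Under NL its FPKM was 188.6 in NL-1, 200.2 in NL-4, 248.1 in NL-5, 242.5 in NL-7 and 180.7 in NL-8. After LD it was 65.5 in LD-1, 29.6 in LD-4, 31.5 in LD-6, 57.9 in LD-7 and 40.4 in LD-8. As for *Nrl*, every LD retina was below every NL retina and the lowest were LD-4 and LD-6. The mean fell from 212.0 ± 31.2 to 45.0 ± 16.0 FPKM (SD, n = 5 each), 4.72-fold lower, with a log2 difference of -2.30 (standard error 0.22, 95% interval -2.78 to -1.81, adjusted p = 3.20e-05 in limma). The gene's span holds the small noncoding genes *Gm15507* on the same strand, with 61 shared exon bases, and *Gm7616* on the other strand, with none shared. Both had at most 145 and 180 reads in a retina, against 2019 to 17343 reads for *Nr2e3*, and whether the counting used strand is not stated.

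*Crx* (ENSMUSG00000041578, chr7:15865947-15879968, minus strand) encodes the homeodomain factor of rods and cones. Its FPKM was 276.1 in NL-1, 248.7 in NL-4, 285.0 in NL-5, 264.8 in NL-7 and 259.2 in NL-8. In the LD retinas it was 143.4 in LD-1, 82.6 in LD-4, 82.8 in LD-6, 131.7 in LD-7 and 127.5 in LD-8. The groups were apart, and the LD retinas fell into a higher set of 3 and the lower pair of LD-4 and LD-6. The mean fell from 266.7 ± 14.2 to 113.6 ± 28.8 FPKM (SD, n = 5 each), 2.35-fold lower, and the log2 difference was -1.27 (standard error 0.16, 95% interval -1.62 to -0.92, adjusted p = 1.99e-04 in limma). Without LD-4 and LD-6 the log2 difference was -0.99, just under 2-fold, although its limma adjusted p was 2.35e-05, the lowest of a range that reached 0.00565 under the other settings.

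*Otx2* (ENSMUSG00000021848, chr14:48657677-48673819, minus strand) is the homeobox gene above *Crx* in the photoreceptor cascade, and it is also active in bipolar cells and pigment epithelium. Under NL its FPKM was 63.2 in NL-1, 63.6 in NL-4, 68.0 in NL-5, 67.0 in NL-7 and 69.0 in NL-8. After LD it was 44.8 in LD-1, 38.6 in LD-4, 41.0 in LD-6, 42.5 in LD-7 and 42.9 in LD-8. It varied less between LD retinas than any other of the 10 genes, with a coefficient of variation of 5.54%, against 35.7% for *Nr2e3*, the most variable. The mean fell from 66.2 ± 2.62 to 41.9 ± 2.32 FPKM (SD, n = 5 each), 1.58-fold lower, with a log2 difference of -0.66 (standard error 0.05, 95% interval -0.76 to -0.55, adjusted p = 5.34e-06 in limma). The summed level of 10 pigment epithelium markers was 54.5 to 160.3 FPKM under NL and 62.2 to 120.8 FPKM after LD. The part of pigment epithelium in the level of *Otx2* was not tested. *Otx2* shares 154 exon bases with *Otx2os1* on the other strand and 168 with *Gm49154* on its own strand, 3.65% and 3.98% of its exon length. *Otx2os1* had at most 945 reads in a retina and *Gm49154* at most 457, against 3301 to 7517 reads for *Otx2*. Both were lower after LD, with log2 differences of -0.71 (adjusted p = 0.00126 in limma) and -1.82 (adjusted p = 6.83e-04 in limma). Their part in the level of *Otx2* was not tested.

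*Rorb* (ENSMUSG00000036192, chr19:18930605-19111196, minus strand) encodes the nuclear receptor RORβ, which is needed for *Nrl* to be switched on during rod formation and is present in other retinal neurons too. Its FPKM was 17.7 in NL-1, 20.8 in NL-4, 19.0 in NL-5, 19.9 in NL-7 and 17.1 in NL-8, and 12.6 in LD-1, 16.0 in LD-4, 15.9 in LD-6, 12.7 in LD-7 and 15.4 in LD-8. The groups did not overlap, although the highest LD retina and the lowest NL retina were close, and here LD-4 and LD-6 were the highest LD retinas. The mean fell from 18.9 ± 1.52 to 14.5 ± 1.72 FPKM (SD, n = 5 each), 1.30-fold lower, with a log2 difference of -0.38 (standard error 0.09, 95% interval -0.58 to -0.19, adjusted p = 0.00714 in limma). The adjusted p passed 0.01 narrowly. It was between 0.0108 and 0.0200 when LD-1, LD-7, LD-8, NL-1, NL-4, NL-5 or NL-7 was left out, and it ranged from 0.00367 to 0.0558 over all alternatives.

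Both cone factors were low in the whole retina. *Thrb* (ENSMUSG00000021779, chr14:17660261-18038090, plus strand) encodes thyroid hormone receptor β, whose TRβ2 form directs M-opsin cones, and the table does not separate its isoforms. Its FPKM was 11.1 in NL-1, 9.99 in NL-4, 9.91 in NL-5, 9.09 in NL-7 and 10.5 in NL-8, and 8.52 in LD-1, 4.76 in LD-4, 4.68 in LD-6, 7.94 in LD-7 and 6.56 in LD-8. All LD retinas were below the NL retinas, LD-4 and LD-6 most. The means were 10.1 ± 0.753 and 6.49 ± 1.77 FPKM (SD, n = 5 each), a log2 difference of -0.67 (standard error 0.16, 95% interval -1.04 to -0.31), which missed the threshold with an adjusted p of 0.0112 in limma. The adjusted p was 0.00389 without LD-1 and 0.00800 without LD-7. Without LD-4 and LD-6 the difference was -0.40 with an adjusted p of 0.0176, and over all alternatives the adjusted p ranged from 0.00389 to 0.0555.

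*Rxrg* (ENSMUSG00000015843, chr1:167598384-167639623, plus strand) encodes the retinoid X receptor RXRγ, a partner of thyroid hormone receptors in cones. It had the lowest level of the 10 genes, with 113 to 168 reads per retina under NL and 75 to 101 after LD. Its FPKM was 2.30 in NL-1, 2.38 in NL-4, 2.92 in NL-5, 2.81 in NL-7 and 2.84 in NL-8, and 1.77 in LD-1, 1.61 in LD-4, 1.93 in LD-6, 1.47 in LD-7 and 1.98 in LD-8. The groups did not overlap, and LD-4 and LD-6 lay within the range of the other LD retinas. The mean fell from 2.65 ± 0.286 to 1.75 ± 0.212 FPKM (SD, n = 5 each), 1.51-fold lower, with a log2 difference of -0.57 (standard error 0.11, 95% interval -0.82 to -0.33, adjusted p = 0.00311 in limma). Without NL-5 the adjusted p was 0.0105 and without NL-7 it was 0.0103, without LD-4 and LD-6 it was 0.0140, and the other settings gave 0.00214 to 0.0447.

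*Neurod1* (ENSMUSG00000034701, chr2:79452521-79456751, minus strand), a basic helix-loop-helix gene needed for photoreceptor survival and for TRβ2, was the factor with the highest mean after LD. Its FPKM was 158.9 in NL-1, 119.1 in NL-4, 138.9 in NL-5, 134.9 in NL-7 and 151.7 in NL-8, and 185.1 in LD-1, 116.9 in LD-4, 124.9 in LD-6, 181.7 in LD-7 and 204.5 in LD-8. LD-1, LD-7 and LD-8 were above all NL retinas, while LD-4 and LD-6 were within or below the NL range. The means were 140.7 ± 15.5 and 162.6 ± 39.2 FPKM (SD, n = 5 each), with a log2 difference of 0.18 (standard error 0.16, 95% interval -0.18 to 0.54, adjusted p = 0.459 in limma, exact permutation p = 0.317). Without LD-4 and LD-6 the difference was 0.44 and the adjusted p 0.0121, while the other settings gave up to 0.726. *Neurod1* shares 7.37% of its exon length with *Cerkl* on the same strand and 5.64% with *Gm26755* on the other. *Cerkl* had at most 2890 reads in a retina and *Gm26755* at most 32, against 6467 to 12420 reads for *Neurod1*. The log2 difference of *Cerkl* was 0.42 (adjusted p = 0.227 in limma), and its part in the level of *Neurod1* was not tested.

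The MADS-box pair differed from each other. *Mef2c* (ENSMUSG00000005583, chr13:83504034-83667080, plus strand) had an FPKM of 3.91 in NL-1, 4.70 in NL-4, 8.20 in NL-5, 7.87 in NL-7 and 5.57 in NL-8, and of 2.40 in LD-1, 1.75 in LD-4, 1.73 in LD-6, 2.55 in LD-7 and 2.07 in LD-8. NL-5 and NL-7, the closest NL pair, were the highest, and all LD retinas were below the lowest NL retina. The mean fell from 6.05 ± 1.91 to 2.10 ± 0.370 FPKM (SD, n = 5 each), 2.88-fold lower, with a log2 difference of -1.44 (standard error 0.21, 95% interval -1.90 to -0.98, adjusted p = 5.07e-04 in limma). *Mef2c* is active outside photoreceptors as well, in microglia and endothelium among others, and the summed level of 10 microglia markers was 33.5 to 52.2 FPKM under NL and 65.8 to 156 FPKM after LD, while that of 10 endothelial markers was 47.0 to 57.1 and 62.3 to 100.5 FPKM. No marker of either list was at 0 in all 10 retinas. Which cells the *Mef2c* reads came from was not tested.

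*Mef2d* (ENSMUSG00000001419, chr3:88142372-88172086, plus strand), the abundant MEF2 gene of photoreceptors, had an FPKM of 87.6 in NL-1, 86.9 in NL-4, 83.0 in NL-5, 81.4 in NL-7 and 85.6 in NL-8, and of 98.1 in LD-1, 65.6 in LD-4, 64.5 in LD-6, 93.5 in LD-7 and 80.9 in LD-8. LD-1 and LD-7 were above all NL retinas and the other 3 were below them, so the LD retinas lay on both sides of a narrow NL range. The means were 84.9 ± 2.63 and 80.5 ± 15.5 FPKM (SD, n = 5 each), with a log2 difference of -0.10 (standard error 0.12, 95% interval -0.35 to 0.16, adjusted p = 0.585 in limma, exact permutation p = 0.444), and the sign of this difference turned to above 0 under TPM, under plain depth and without LD-4 and LD-6. An antisense gene, *1700113A16Rik*, shares 531 exon bases with *Mef2d*, 8.87% of its exon length, and had at most 64 reads in a retina.

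**Figure D2:**
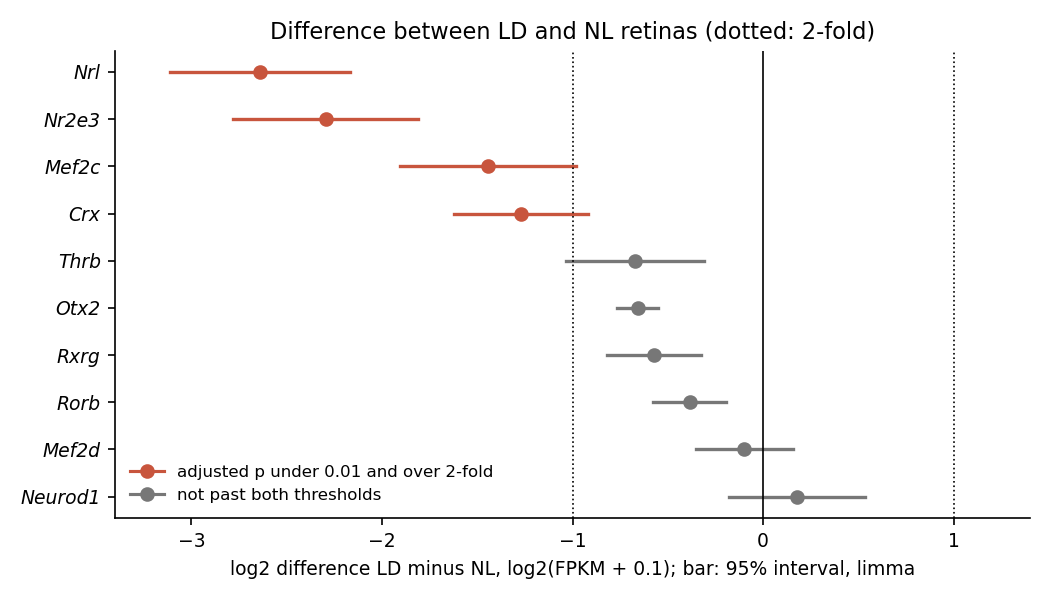
Log2 difference LD minus NL of each factor gene on the log2(FPKM + 0.1) scale, with the 95% interval from limma (n = 5 retinas per group), red for the genes called. *Nrl* at -2.64 and *Nr2e3* at -2.30 lie farthest below 0, and the intervals of *Mef2d* and *Neurod1* cross 0 (the sign of *Mef2d* turned under TPM and plain depth).

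In bulk tissue, fewer cells of a type and less RNA per cell cannot be told apart, and this holds for every level given here. The order of the levels differed between the groups. Under NL it was *Nrl*, *Crx*, *Nr2e3*, *Neurod1*, *Mef2d*, *Otx2*, *Rorb*, *Thrb*, *Mef2c* and *Rxrg*, and of the neighbours in this order the values overlapped only between *Nrl* and *Crx*, while *Crx* and *Nr2e3* came within 1 FPKM of each other. After LD the order was *Neurod1*, *Crx*, *Mef2d*, *Nrl*, *Nr2e3*, *Otx2*, *Rorb*, *Thrb*, *Mef2c* and *Rxrg*, and neighbours overlapped from *Neurod1* through *Otx2* and between *Mef2c* and *Rxrg*. Among the 1088 tested genes with a transcription factor family, *Nrl*, *Crx* and *Nr2e3* had the levels ranked 1, 2 and 4 under NL, and ranked 19, 4 and 22 after LD. *Neurod1* went from rank 6 to rank 1. By the size of the log2 decrease among these 1088 genes, *Nrl* was ranked 1, *Nr2e3* 2, *Mef2c* 9 and *Crx* 14. Of the 1088 genes, 7.44% were called, 1.56% as lower and 5.88% as higher.

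Within the LD group, LD-4 and LD-6 were both under the other 3 retinas in 8 of the 10 factors, both over them in *Rorb*, and mixed in *Rxrg*. Of the 15604 genes that averaged 1 FPKM or more, 27.4% had both under and 23.6% both over. The mean of LD-4 and LD-6 against that of LD-1, LD-7 and LD-8 was 31.9 against 61.6 FPKM for *Nrl*, 30.5 against 54.6 for *Nr2e3*, 82.7 against 134.2 for *Crx* and 4.72 against 7.67 for *Thrb*. For *Neurod1* it was 120.9 against 190.4 FPKM, and for *Mef2d* 65.1 against 90.8. The summed level of 20 rod genes moved with this, at 2565 FPKM in LD-4 and 2693 in LD-6 against 4117 to 4800 in the other LD retinas. Summed levels of markers of the inner retina, Müller glia and vessels were higher in LD-4 and LD-6 than in the other LD retinas. Those of microglia and pigment epithelium markers were not the highest there. For 10 Müller glia markers they were 962 and 988 FPKM against 701 to 723 in the other LD retinas, and for 10 endothelial markers 99.9 and 100.5 FPKM against 62.3 to 65.7. The sums were 505 and 512 FPKM against 371 to 445 for 10 bipolar markers, 221 and 217 against 175 to 211 for 10 amacrine and horizontal markers, and 287 and 284 against 250.2 to 267 for 10 ganglion cell markers. Against the NL retinas, LD-4 and LD-6 were lower for Müller glia markers (NL 1111 to 1340 FPKM). They were higher for endothelial (NL 47.0 to 57.1) and bipolar markers (NL 392 to 469). Both lay within the NL range for amacrine and horizontal (191 to 223) and ganglion cell markers (259 to 305). The part of these differences between LD retinas in the spread of the factors was not tested.

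**Figure D3:**
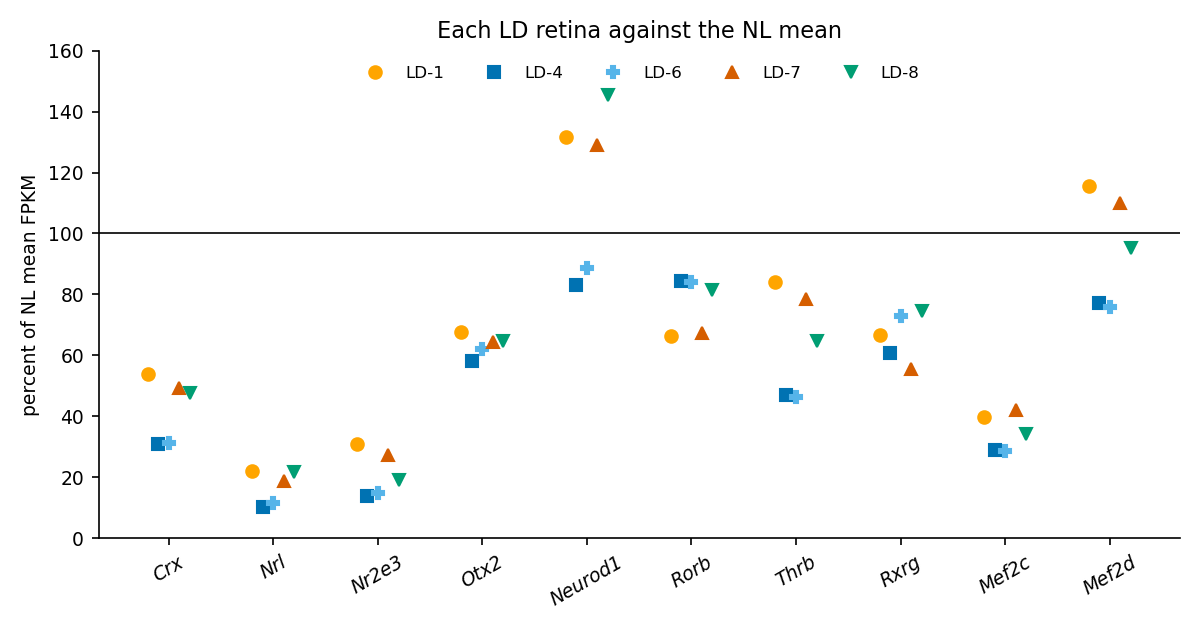
FPKM of each factor gene in the 5 LD retinas as a percentage of the NL mean (line at 100%), with 1 symbol per retina. LD-4 and LD-6 (blue square and light blue cross) are at 10.2% and 11.4% for *Nrl* and at 83.1% and 88.8% for *Neurod1*, where the other 3 retinas are above 100%.

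Most rod genes that these factors act on were lower as well. Of a list of 20 rod genes, 19 were called, all lower, with a median log2 difference of -2.07. The rod transducin gene *Gnat1* had a difference of -2.71, *Reep6*, which serves protein traffic in rods, of -2.64, and *Pde6g*, the inhibitory subunit of the rod phosphodiesterase, of -2.44. The exception was *Rbp3*, the gene of the retinoid carrier of the matrix around photoreceptors, at -0.58 with an adjusted p of 0.0262 in limma. Of a list of 12 cone genes, 5 were called lower and 1 higher, with a median of -0.91. The opsin genes *Opn1sw* (-2.86) and *Opn1mw* (-2.18), the cone arrestin gene *Arr3* (-1.97), the cone transducin gene *Gnat2* (-1.46) and the channel subunit gene *Kcne2* (-1.16) were those called lower. Of the 6 cone genes called, only *Gnat2* and *Kcne2* remained called with the closest pairs of retinas averaged or with a replicate block, and these and *Gnb3* over the retinas with shared numbers and no block. *Arr3* also lost its call under TPM, under plain depth, without the filter on low values and without the intensity trend. It did so too when LD-4, LD-6 or any NL retina was left out singly. Its adjusted p in these settings was 0.0101 to 0.0231 in limma. *Gnb3*, the cone transducin beta subunit, which ON bipolar cells also express, was higher after LD, at 652 ± 176 FPKM against 270.0 ± 68.4 FPKM (SD, n = 5 each). The log2 difference was 1.27 (adjusted p = 0.00127 in limma).

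The median log2 difference of 20 network partners, genes known to act with or on these factors, was -0.34. Of these partners 4 were called, all lower, where 6.51% of the genes tested were called, 2.37% as lower. They were *Esrrb*, a nuclear receptor of rods, from 39.4 ± 3.79 to 10.6 ± 1.61 FPKM (log2 difference -1.89), *Ankrd33*, a repressor of CRX, from 97.1 ± 7.46 to 31.6 ± 13.2 FPKM (-1.72), *Pias3*, a SUMO ligase that acts on NR2E3 and NRL, from 36.4 ± 2.01 to 14.7 ± 2.44 FPKM (-1.32), and *Prdm1*, a brake on the bipolar fate, from 4.19 ± 0.367 to 1.94 ± 0.610 FPKM (-1.12), all as mean ± SD with n = 5 each. With the adjusted p alone 7 partners passed, all lower, against 17.0% of the genes tested in either direction and 7.74% lower. *Six3*, a homeobox gene of the inner retina, had the highest difference of the list, 0.35 with an adjusted p of 0.0691 in limma. The 20 family paralogs, relatives of the factors by protein family, had a median of 0.06. None was called in limma, nor in limma-voom on the recovered reads, while 6 of the 20 had an unadjusted p under 0.05 in limma. The share of all genes tested at this unadjusted threshold was not computed. It is at least the 27.8% that passed an adjusted p of 0.05. The adjusted p of 0.01 without the fold was passed by 3 of the 20, against 17.0% of all genes tested. The 3 paralogs, named after their values were seen, were the nuclear receptor genes *Rxra* (-0.59) and *Rora* (-0.33), which fell, and *Neurod4* (0.36), which rose.

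**Figure D4:**
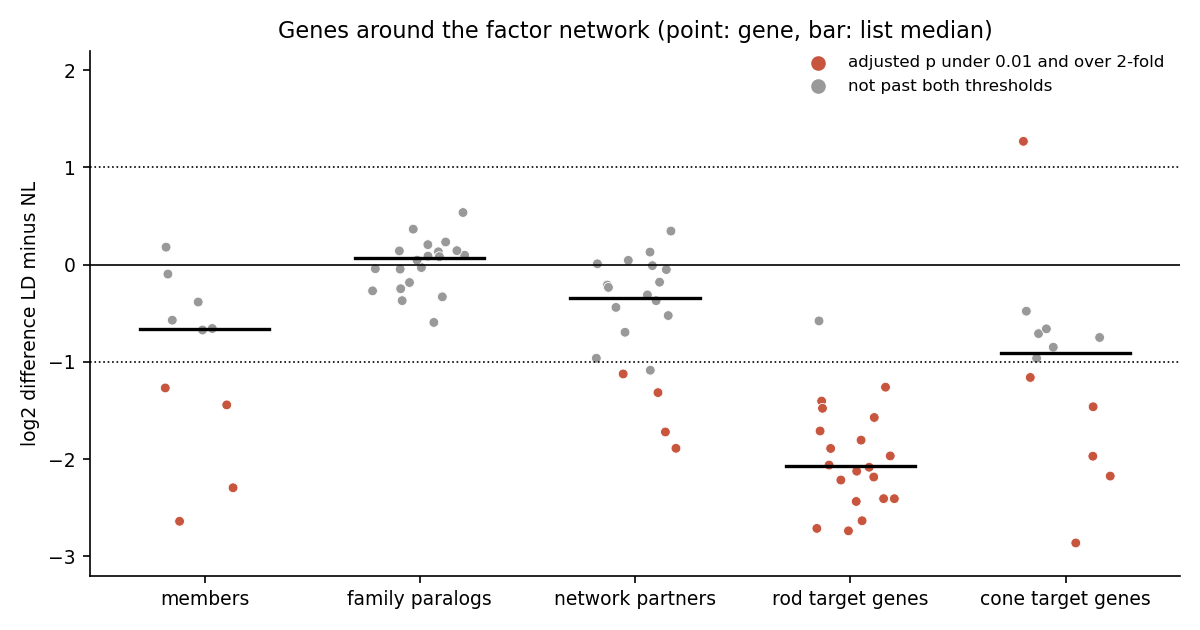
Log2 difference LD minus NL of each gene of 5 lists (points, red where called) with the list median (bar) and dotted lines at 2-fold. The medians are -0.67 for the 10 factors, 0.06 for the paralogs, -0.34 for the partners, -2.07 for the rod genes and -0.91 for the cone genes.

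To set the factors against each other and against the genes they act on, 8 log2 ratios were compared between the groups with two-sided exact permutation tests over the 5 NL and 5 LD retinas, adjusted over the 8. *Crx* fell less than the mean of the 20 rod genes, although not less than each of them, since *Rbp3* differed by only -0.58. Its log2 ratio to their mean was -0.75 ± 0.05 under NL and -0.03 ± 0.08 after LD (SD, n = 5 each), a difference of 0.72 (standard error 0.04, exact p = 0.00794, adjusted 0.0159). *Nrl* fell more than this mean, with a ratio of -0.60 ± 0.06 under NL and -1.26 ± 0.10 after LD, a difference of -0.66 (standard error 0.05, exact p = 0.00794, adjusted 0.0159). In both ratios the 5 LD retinas lay apart from the 5 NL retinas, LD-4 and LD-6 included.
The ratio of *Crx* to *Otx2* fell by 0.61 on the log2 scale (standard error 0.15, exact p = 0.00794, adjusted 0.0159), with no overlap between the groups, and LD-4 and LD-6 were the lowest. Without these retinas it fell by 0.38 (standard error 0.05, exact p = 0.0179, adjusted 0.0357). The ratio of *Mef2c* to *Mef2d* fell by 1.35 on this scale (standard error 0.23, exact p = 0.00794, adjusted 0.0159), and the LD retinas lay within a narrow range of -5.30 to -5.15 while the NL retinas spread from -4.45 to -3.32.
The other 4 ratios did not pass 0.05 after adjustment. *Nrl* against *Nr2e3* differed by -0.34 (standard error 0.14, exact p = 0.0556, adjusted 0.0635), where LD-8, at 0.67, was above the NL range of 0.36 to 0.63 and the other LD retinas were below it. Without LD-8 this ratio differed by -0.48 (standard error 0.06, exact p = 0.00794, adjusted 0.0159), so that this retina decided the call. *Nr2e3* against the rod genes differed by -0.31 (standard error 0.13, exact p = 0.0476, adjusted 0.0635), *Thrb* against the cone genes by 0.39 (standard error 0.14, exact p = 0.0317, adjusted 0.0508), and *Rxrg* against the cone genes by 0.49 (standard error 0.25, exact p = 0.0714, adjusted 0.0714). In *Rxrg* against the cone genes, LD-4 and LD-6 stood at -2.36 and -2.25, above -3.10 in the next LD retina, and without them the difference was 0.11 (exact p = 0.339, adjusted 0.339). *Thrb* against the cone genes passed the adjusted threshold without LD-8, at 0.48 (exact p = 0.0159, adjusted 0.0212). The cone mean in these ratios holds all 12 genes of the list. Among them is *Gnb3*, which rose by 1.27, and the ratios were not computed without it.

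**Figure D5:**
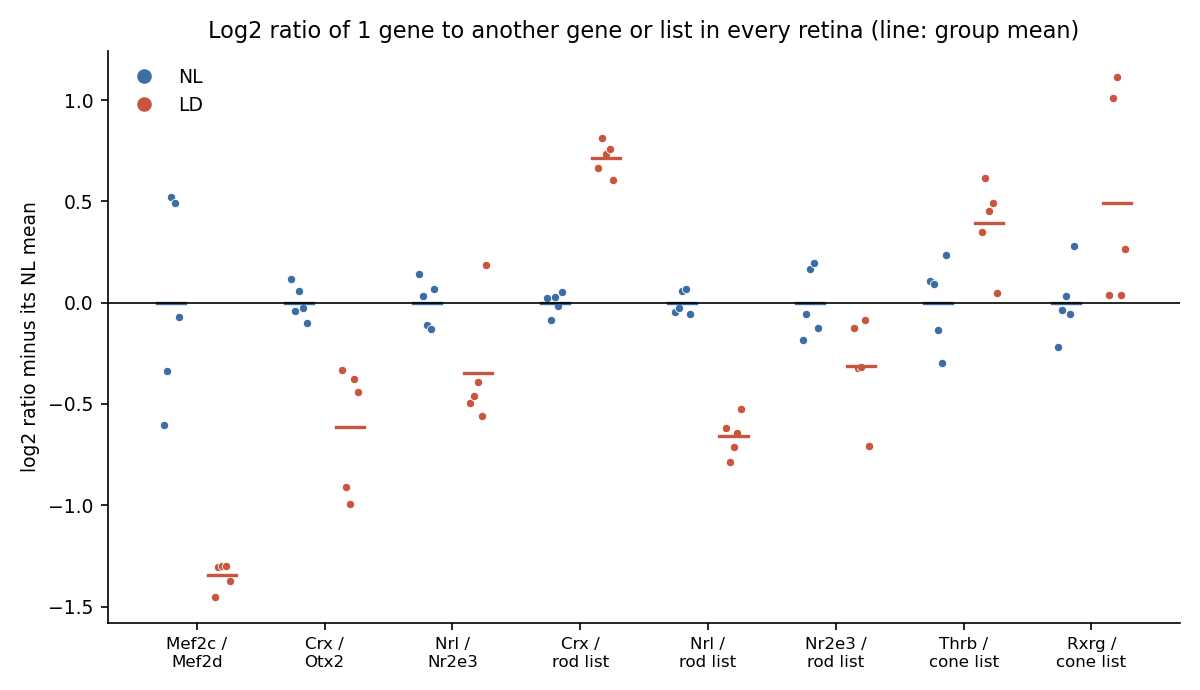
Log2 ratio of a factor gene to another gene or to the mean of a gene list in each retina, minus the NL mean of that ratio, for NL (blue) and LD (red) with a line at each group mean. The LD points of *Crx* against the rod genes lie above all NL points and those of *Nrl* against the rod genes below them.

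For each factor the protein-coding genes whose levels followed it most closely, up to 3 of which are given, were found by Pearson's r of log2(FPKM + 0.1) over the 10 retinas, among genes averaging 1 FPKM or more. The r holds both the difference between the groups and the spread within them, so it is given as a description. For *Nrl* they were *Rgs9bp* (1.00), *Rom1* (0.999) and *Gnat1* (0.999). For *Crx* they were *Mdm1*, *Vtn* and *Polg2*, at 0.998 each, and for *Nr2e3* *Dmd* and *Gnb5* at 0.996 and *Zdhhc7* at 0.995. *Otx2* was followed by *Fsbp* (0.995), *Scn4a* (0.992) and *Hsf2* (0.992), and *Thrb* by *Ano2* (0.993), *Nxnl2* (0.992) and *Ppp2r5c* (0.991). *Rorb* was followed by *mt-Nd6* (0.990), *Enox2* (0.973) and *Aplp2* (0.973), *Mef2c* by *Araf* (0.981), *Atp11b* (0.979) and *Brwd3* (0.978), *Rxrg* by *Uqcrh* (0.964), *Ntan1* (0.962) and *Crbn* (0.961), and *Mef2d* by *Lifr* (0.980), *C2cd2l* (0.978) and *Chsy1* (0.977). The lowest values were those of *Neurod1*, with *Lsm14a* at 0.945 and *Pcdh15* at 0.931.

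Outside rods and cones, only markers of glia and microglia were called. None of the 10 bipolar, 10 amacrine and horizontal, 10 ganglion cell, 10 pigment epithelium and 10 endothelial markers was called in limma, with median log2 differences of -0.02, -0.08, -0.05, 0.04 and 0.31, and limma-voom called none either. At an unadjusted p under 0.05 in limma there were 4, 4, 0, 2 and 3 markers of these lists, in the same order. Of all genes tested, at least 27.8% passed that unadjusted threshold, since this share passed an adjusted p of 0.05. Of these 5 lists, 1 bipolar marker, *Grik1* (0.65), and 1 endothelial marker, *Kdr* (0.70, named after its value was seen), passed the adjusted p alone, both higher. Of 10 Müller glia markers 3 were called, *Gfap* (3.20) and *Vim* (2.02) higher and *Glul* (-2.09) lower, and of 10 microglia markers 7 were called, all higher, *C1qc* (2.27), *C1qb* (2.15), *C1qa* (1.86) and *Trem2* (1.42) the most. The median was 0.23 for the Müller glia and 1.16 for the microglia markers, and the lowest microglia marker was *P2ry12*, a receptor of resting microglia, at -0.74 (adjusted p = 0.122 in limma). Summed levels of the bipolar markers, a cell type in which *Otx2* is active, were 392 to 469 FPKM under NL and 371 to 512 FPKM after LD. The part of such cells in the levels of *Otx2*, *Neurod1*, *Rorb* and *Mef2d* after LD was not tested.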

How the data were processed

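RNA was taken from neural retinas with TRIzol and made into TruSeq libraries, according to the labels. The design text names a NovaSeq, the methods of the study another Illumina instrument, and scaling was done by the company that sequenced the libraries. As deposited, the data are FPKM values of 10 retinas in 1 table of 54532 genes. The submitters' processing notes name TopHat2 2.0.9, Bowtie2 2.0.6 and build mm8, but the gene positions belong to GRCm38, since 54409 identifiers occur in GENCODE M21 and 53499 have the same position there. The counting program and its strand setting are not given in the sources used here. FPKM times gene length gave whole reads for 100% of the values. In scaling, the authors multiplied the read total of each retina by a factor, 0.951 to 0.968 for NL and 1.041 to 1.069 for LD.

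Values were put on the log2(FPKM + 0.1) scale, which understates fold changes of low genes. The 24508 genes that reached 0.1 FPKM in 5 or more retinas were tested. The groups were compared with an intensity trend and no block (limma 3.58.1, R 4.3.3), and single genes and ratios by two-sided exact permutation tests (Python 3.11.15). Tables were handled with numpy 2.4.6 and pandas 2.3.3, and matplotlib 3.10.9 drew the plots. The limma step was checked on simulated data with known changes. The members and lists were chosen with earlier results of these data known. Named are all 10 factors, and of each other list the called genes (the 4 with the largest differences where over 6 were called) and its highest and lowest gene, where these bear on the factors. Some genes that this rule names are not reported here. Promoter sequences come from RefSeq (GRCm38.p6), and overlaps from GENCODE M21. Another 13 settings, and fits that leave out each retina singly, are given in the closing section, with 1 setting added once the values were known. Depth limits *Rxrg* most, and the number of retinas limits the exact tests.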

Additional observations from a re-analysis of the deposited data

How the results depend on the processing

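The 4 called factors stayed called and lower under each alternative with the thresholds kept, except *Crx* without LD-4 and LD-6, where 3 factors were called. The log2 difference of *Nrl* ranged from -2.76 to -2.26, that of *Nr2e3* from -2.45 to -1.97, that of *Crx* from -1.36 to -0.99, that of *Mef2c* from -1.58 to -1.15 and that of *Otx2* from -0.68 to -0.52. The difference of *Mef2d* turned to 0.0065 under TPM, 0.036 under plain depth and 0.093 without LD-4 and LD-6, none past the threshold. TPM and plain depth raised the median of all genes by 0.11 and 0.12, so that *Mef2d* lay under the median there. With an adjusted p under 0.05 and no minimum fold, 27.8% of the genes tested passed, that is 6818 genes against 1595, with 8 factors, 11 partners, 4 paralogs and 11 cone genes. The number of genes called was 949 with the closest pairs of retinas averaged and 816 with a pseudocount of 1 FPKM. The 4 ratios that passed after adjustment kept their sign, with exact permutation p-values of 0.00794 to 0.0286. Adjusted, these were 0.0571 with the closest pairs averaged and with only the shared numbers, where the smallest exact p is 0.0286, and at most 0.0357 otherwise. With a pseudocount of 1 FPKM the ratios to the cone genes passed too, at 0.38 for *Thrb* (adjusted exact p = 0.0423) and 0.57 for *Rxrg* (adjusted exact p = 0.0381). Of the cone genes, 6 in the comparison reported, 2 were called with the closest pairs averaged and 3 with only the shared numbers and no block. Of the partners, 4 in the comparison reported, 3 were called under plain depth, with a pseudocount of 1 FPKM and without LD-4 and LD-6.

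Both groups hold retinas numbered 1, 4, 7 and 8. Same-numbered retinas did not deviate together (r of 0.06, 0.07, -0.01 and -0.09), and the labels give no pairing. The fit with the number as a replicate block, over these 8 retinas, called 772 genes, 4 factors, 3 partners and 2 cone genes. Each retina left out in turn gave 1285 to 1505 genes called, 4 factors called, 5 to 7 factors past the adjusted p alone, 4 to 5 partners, 19 rod genes and 5 to 7 cone genes.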

Other observations

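Among the 1088 tested genes with a transcription factor family, other genes besides the factors and partners described above were strongly lower after LD, and they are named here after their values were seen. *Crxos*, a homeobox gene next to *Crx*, had a mean of 15.0 FPKM in the NL and 3.68 FPKM in the LD retinas (n = 5 each, log2 difference -2.07, adjusted p = 1.06e-04 in limma). *Insm1*, a zinc finger gene of newborn neurons and endocrine cells, was at 22.6 and 6.81 FPKM (-1.76, adjusted p = 1.12e-04 in limma). *Hes5*, a Notch target, was at 5.75 and 1.91 FPKM (-1.60, adjusted p = 3.04e-04 in limma), and *Ppara*, a nuclear receptor of fatty acid metabolism, at 4.14 and 1.07 FPKM (-1.79, adjusted p = 2.50e-04 in limma).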
